A study of Mus musculus with 24 samples.

Results

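Muscle of MRL/MpJ (MRL) mice was compared with muscle of C57BL/6 (B6) mice 21 days after a volumetric muscle loss injury that had been filled with decellularized extracellular matrix (ECM). The comparison covered 3 ECM-treated MRL libraries and 3 ECM-treated B6 libraries, 6 of the 24 bulk RNA libraries of the series, and all 14159 genes of the matrix that carried a symbol, out of 14160 rows. The B6 mice were inbred C57BL/6J animals and the MRL mice inbred MRL/MpJ animals, and both were females of 6 to 8 weeks at surgery. A 3 mm by 3 mm piece of the quadriceps was removed and replaced with 50 µL of hydrated ECM powder, made from the submucosa of pig small intestine, under isoflurane with buprenorphine for pain, and the whole quadriceps was frozen for sequencing. Each library was described as an independent sample, and nothing in the sources states that muscles were pooled. The other libraries, used here only as a background and to estimate the spread, came from uninjured mice and from injuries filled with saline or with polyethylene (PE) particles, with 3 libraries for each strain and treatment.

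A volumetric muscle loss defect is too large to be rebuilt by the satellite cells of the muscle alone and tends to heal with scar and fat. Decellularized ECM placed in such a wound is known to draw in macrophages that respond to interleukin 4 and interleukin 13, a state called alternative or type 2 activation, with Arg1, Chil3 and Retnla as its classic transcripts in mice. MRL mice are an inbred strain that closes some wounds with little scar and is prone to autoimmunity, and they carry the k haplotype of the major histocompatibility complex (MHC), whereas B6 mice carry the b haplotype.

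The labelled tissue was borne out by its markers in all 6 libraries. Creatine kinase Ckm lay between 12.35 and 13.47 log2 CPM (CPM, read counts scaled to a common library size, on a log2 scale on which a count of 0 lies at -3.65), skeletal actin Acta1 between 13.81 and 14.82 and the fast myosin Myh4 between 15.12 and 16.41. Mammary and skin epithelial markers were read too. The 12 measured summed to 311 to 388 CPM in the B6 and 85.6 to 464 CPM in the MRL libraries, with 0 called. Because whole muscle was sequenced, fewer cells of a type and less RNA per cell cannot be told apart in any of the values. The B6 libraries shared a first sequencing index that differed from the one shared by the MRL libraries, so the index and the strain cannot be told apart. Mitochondrial transcripts made up 7.85% to 12.6% of the CPM of the 6 libraries, and 92 to 141 genes were listed at 0 in a library. Polr2f, a subunit of RNA polymerases that every cell uses, was listed at 0 in all 3 MRL libraries, so a value of 0 is given below as listed, with no fold change against a strain in which every library is at 0. Log2 differences from levels near the bottom of the scale depend on the prior count that the authors added. The deposited values carry no read totals (the study lists them for each library, and they were not used here), and their lowest value implies a mean effective library size of 25149678 reads over the 24 libraries.

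Of 14159 genes, 376 (2.66%) differed between ECM-treated MRL and ECM-treated B6 mice at an adjusted p under 0.05 (limma, Benjamini-Hochberg over all genes), 180 (1.27%) of them higher and 196 (1.38%) lower in MRL mice. These genes are described as called. At an unadjusted p under 0.05 there were 1901 genes (13.4%). The median log2 difference over all genes was -0.02, whereas the called genes had a median absolute difference of 2.01 on the log2 scale. When each of the 6 libraries was left out in turn, 215 genes were called every time, 105 higher and 110 lower. The ranges of the strains did not overlap for 373 of the called genes, against 3645 genes (25.7%) of the whole matrix. When the libraries were scaled to equal totals, the median of all genes moved to -0.27, and the calls split into 128 higher and 251 lower.

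**Figure D1:**
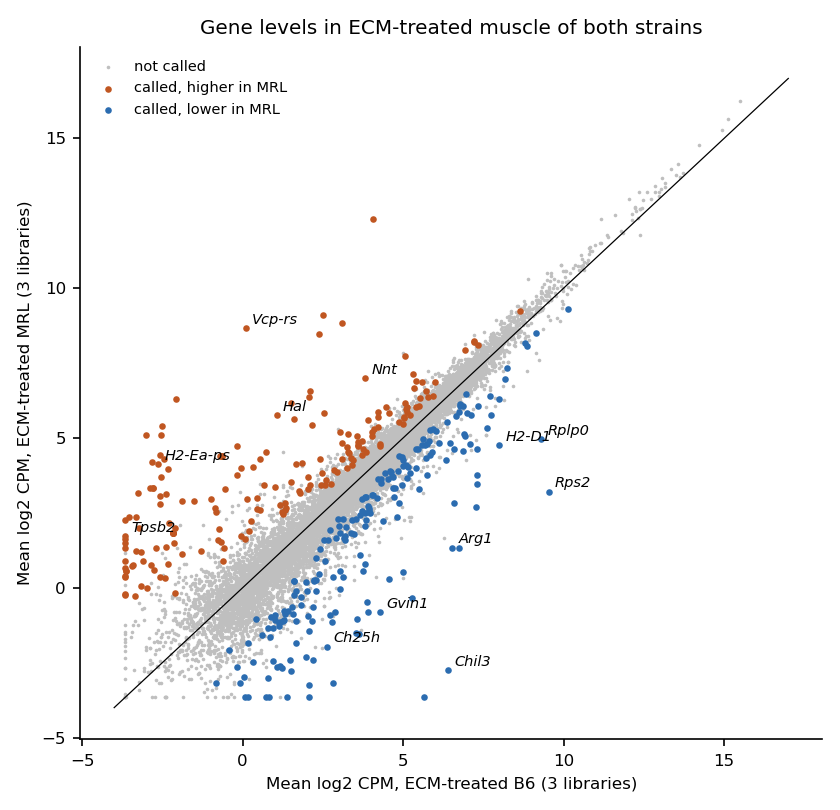
Mean log2 CPM of each of 14159 genes in the 3 ECM-treated B6 libraries (horizontal axis) and the 3 ECM-treated MRL libraries (vertical axis), with the line of equal levels. The 180 genes called higher in MRL mice (orange) and the 196 called lower (blue) lie off the line, with Chil3 and Arg1 far below it and H2-Ea-ps and Vcp-rs far above it.

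Chil3, which encodes a chitinase-like protein secreted by alternatively activated macrophages, had the largest drop in MRL relative to B6 mice among the genes named by the rule. Levels of Chil3 were 8.90, 4.36 and 5.94 log2 CPM in the B6 libraries and -3.65, -3.01 and -1.58 in the MRL libraries. The MRL libraries therefore lay near or at the bottom of the scale while every B6 library was well above it, and the means were 187 CPM in B6 and 0.0998 CPM in MRL mice, the second below the 0.119 CPM that 3 counts would give in a library of average size. The log2 difference was -9.15 ± 0.91 (SE, n = 3 in each strain, limma adjusted p = 1.13e-06). The gene lies on chromosome 3 at 106054870-106074880 (GRCm39).

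Arg1, the arginase that diverts arginine to ornithine in alternatively activated macrophages, followed the same direction. Arg1 stood at 8.51, 5.19 and 5.88 log2 CPM in B6 libraries 1 to 3 and at 1.30, 1.25 and 1.47 in MRL libraries 1 to 3. The MRL libraries lay close together and the B6 libraries were spread widely, without overlap. The log2 difference was -5.19 ± 0.83 (limma adjusted p = 0.000627), which corresponds to a 36.4-fold higher geometric mean in B6 mice. The gene lies on chromosome 10 at 24791118-24803817 (GRCm39). Both Chil3 and Arg1 stayed called when any of the 6 libraries was left out, with adjusted p values of up to 1.95e-05 and 0.00599.

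Retnla, the third classic transcript of that state, did not separate the strains. The B6 libraries gave 8.50, 4.18 and 6.16 log2 CPM for Retnla, and the MRL libraries gave -2.76, 1.90 and 5.86. The MRL libraries covered almost the whole range of the gene, from close to 0 counts to just under the middle B6 library, and the log2 difference of -4.62 ± 2.52 did not pass the test (limma adjusted p = 0.451). The mannose receptor Mrc1 differed by -1.37 ± 0.58 (adjusted p = 0.301), the lectin Mgl2 by -1.53 ± 0.55 (adjusted p = 0.205) and the haemoglobin scavenger receptor Cd163 by -0.39 ± 0.58 (adjusted p = 0.797), and their ranges overlapped between strains. Without B6 library 1 the difference of Cd163 turned to 0.40, and without MRL library 3 to 0.15. Maf, Pink1 and Gata3, which the study also names among its macrophage genes, differed by 0.01, 0.13 and -0.46 (adjusted p = 0.988, 0.911 and 0.842).

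**Figure D2:**
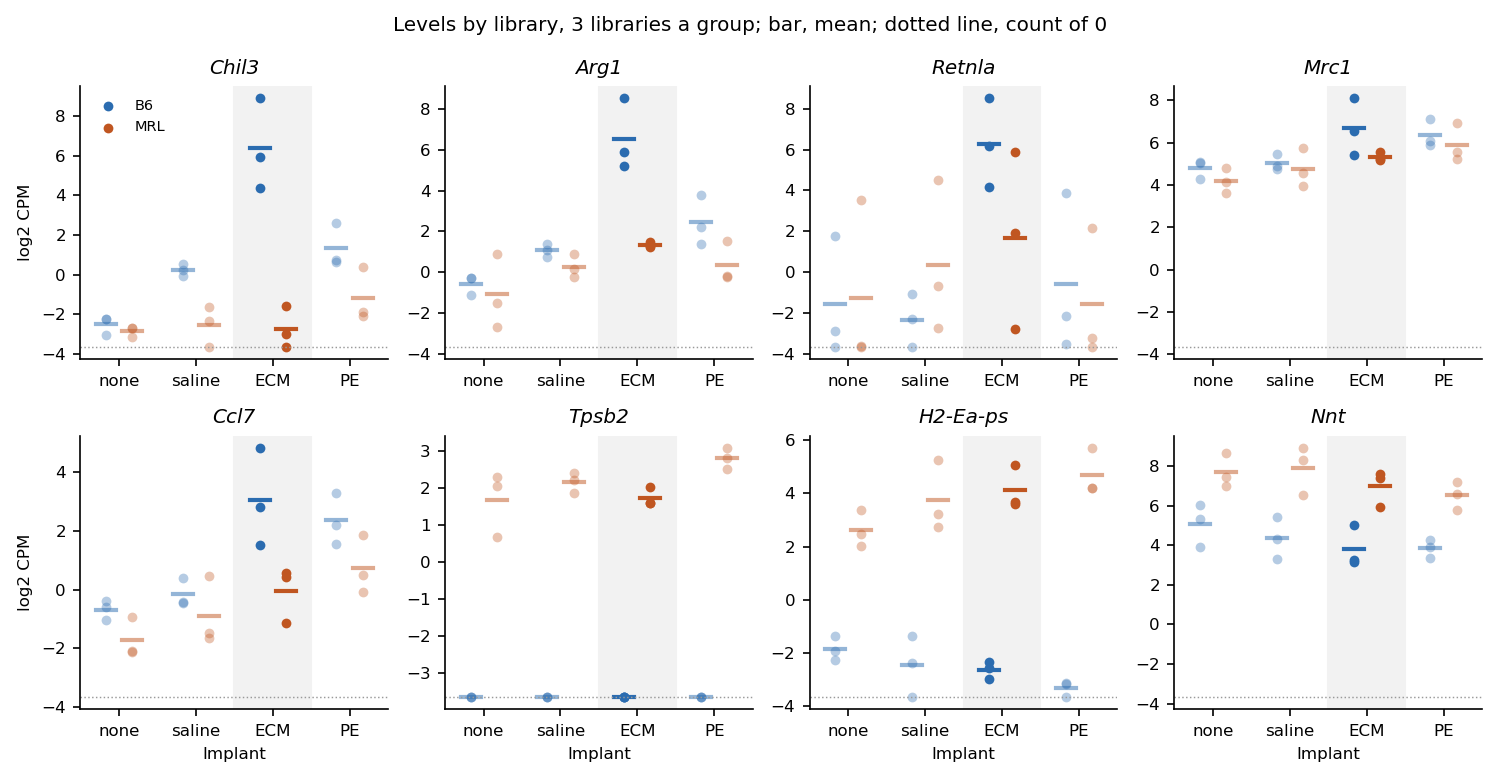
Log2 CPM of 8 genes in every library, grouped by implant (none, saline, ECM, PE) and strain (blue, B6; orange, MRL), with the mean of 3 libraries as a bar and a count of 0 as a dotted line. In the shaded ECM columns Chil3, Arg1 and Ccl7 are higher in B6, Retnla and Mrc1 overlap between strains, and Tpsb2, H2-Ea-ps and Nnt are higher in MRL mice.

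Over the list of alternatively activated macrophage genes, part of which the study chose on these samples, 24 of 27 genes were measured. Chil3 and Arg1 were the 2 called members, both lower in MRL mice (8.33% of the list, against 2.66% of all genes). The median of the list was -0.57 on the log2 scale, against -0.02 over all genes, and 18 of the 24 members were negative. B6 library 1 held the highest of the 3 B6 values for 22 of the 24 members. Without that library the median of the list was -0.16, with 14 members negative and the same number of calls, 2.

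The window of 250 bases before the start of Chil3 is shown beside that of Retnla because both are classic transcripts of the same activation state, Chil3 called and Retnla not; the difference between the genes was not tested. Proteins of the STAT family bind palindromes of TTC and GAA with 3 bases between them, and STAT6, which acts below the interleukin 4 receptor, also binds the form with 4 bases between. Both forms read the same on both strands. Capitals mark the matches, at position -172 from the start in Chil3 (3 bases between) and at position -145 in Retnla (4 bases between). The sequences are RefSeq promoters of GRCm38.p6, at chr3:106167565-106167814 on the minus strand and chr16:48842359-48842608 on the plus strand.
Chil3: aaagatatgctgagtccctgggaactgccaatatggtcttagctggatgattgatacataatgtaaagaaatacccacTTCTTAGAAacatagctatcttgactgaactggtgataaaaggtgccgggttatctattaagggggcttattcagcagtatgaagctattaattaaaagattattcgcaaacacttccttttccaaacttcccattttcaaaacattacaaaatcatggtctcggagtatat
Retnla: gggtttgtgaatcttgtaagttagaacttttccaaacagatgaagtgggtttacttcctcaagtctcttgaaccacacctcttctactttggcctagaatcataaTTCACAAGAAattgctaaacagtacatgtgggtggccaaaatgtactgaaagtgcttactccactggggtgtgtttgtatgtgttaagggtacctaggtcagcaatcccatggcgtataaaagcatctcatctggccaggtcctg
The form with 3 bases between occurred in 7.02% and the form with 4 in 5.85% of 32851 promoter windows of the same length, so a match describes the letters and does not show a bound site.

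Whether the strain difference itself depended on the treatment was tested by subtracting the difference in another treatment from that in ECM-treated mice. Uninjured mice lacked the injury as well as the implant, so the comparison with them cannot tell implant from injury. Against uninjured mice, 1 gene (0.00706%) passed the test, and it was Chil3, whose strain difference with ECM minus that in uninjured mice was -8.81 ± 1.29 on the log2 scale (limma adjusted p = 0.0214, 512 genes or 3.62% at an unadjusted p under 0.05). Against saline-treated and PE-treated mice 0 genes passed, with 320 (2.26%) and 522 (3.69%) genes at an unadjusted p under 0.05. PE-treated MRL library 2 stood apart from its group, with Cd68 at 8.84 log2 CPM against 3.07 and 3.35 in the others. Without that library, in a fit added after the data were seen, 269 genes passed against PE-treated mice. Mean Chil3 levels in B6 mice were -2.50 log2 CPM uninjured, 0.23 with saline, 6.40 with ECM and 1.33 with PE, with SDs of 0.47, 0.29, 2.31 and 1.12 (n = 3). In MRL mice they were -2.85, -2.54, -2.75 and -1.20, with SDs of 0.28, 1.03, 1.06 and 1.36. Chil3 was thus highest in ECM-treated B6 mice, and without MRL library 1 or MRL library 2 the Chil3 test no longer passed and 0 genes were called. It also did not pass on the compared groups alone, where another gene did.

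Other genes did not pass the adjustment in these tests on all 24 libraries. For Arg1 the strain difference with ECM minus that in uninjured mice was -4.66 ± 1.18 on the log2 scale, and minus that with saline -4.39 ± 1.18 (adjusted p = 0.804 for the first, and no lower for the other). Rnase2a, an RNase of the eosinophil-associated family, differed by -2.11 with ECM (adjusted p = 0.0877) and by 1.35, 1.42 and 1.87 in uninjured, saline-treated and PE-treated mice, the opposite sign. With ECM it read 5.24, 2.78 and 2.80 log2 CPM in B6 and 1.13, 1.26 and 2.09 in MRL libraries. Without ECM it lay at -0.59 or lower in both strains, and at a count of 0 in every uninjured B6 library. Those positive differences therefore depend on the prior count. Cish, a feedback inhibitor induced by STAT5, also changed sign, from -1.08 with ECM to 2.06, 2.12 and 3.04 in those treatments. The unadjusted p of the comparison of ECM with PE was 0.000225 for Rnase2a and 0.000301 for Cish, and the adjusted p was 0.997 for Rnase2a.

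General macrophage genes were mostly negative, but none passed the test. Of 25 measured genes 0 were called, 21 were negative, and the median was -1.06 on the log2 scale. The genes C1qb, C1qc and Fcer1g, all lower, had an unadjusted p under 0.05. These 3 of 25 are not above the 13.4% of all genes at that threshold. The list median was -0.38 in uninjured, -0.57 in saline-treated and -2.04 in PE-treated mice. For Cd68 the log2 CPM was 5.42, 3.49 and 4.96 in B6 mice and 2.75, 3.07 and 3.20 in MRL mice. Cd68, a lysosomal glycoprotein of macrophages, therefore did not overlap between strains, yet its difference of -1.62 ± 0.95 did not pass (limma adjusted p = 0.488). C1qb, a subunit of the complement recognition protein made by tissue macrophages, differed by -1.57 ± 0.52 (adjusted p = 0.144). The summed level of the list was 428 to 1050 CPM in the B6 libraries and 266 to 419 CPM in the MRL libraries, and the median stayed at -0.98 without B6 library 1.

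The 8 genes that the study names as a hepatocyte growth factor response of ECM-treated mice were chosen there on these samples, so their direction is not independent evidence. All 8 were negative, with a median of -2.09, and 1 was called (12.5%, against 2.66% of all genes). That gene was Pnp2, a purine nucleoside phosphorylase. Log2 CPM of Pnp2 came to 0.00, -0.30 and -0.26 in the B6 and -2.89, -2.99 and -2.05 in the MRL libraries. Its difference was -2.45 ± 0.52 (limma adjusted p = 0.00900), and the call was lost without MRL library 1 or 2 (adjusted p up to 0.0562), with log2(CPM + 1), with quantile normalization and on the compared groups alone (up to 0.0641). Summed with its near-identical copy Pnp it differed by -1.46. Pirb and Lair1, inhibitory receptors of myeloid cells, differed by -2.49 ± 0.86 and -2.34 ± 1.03 (adjusted p = 0.167 and 0.327), and the integrin Itgb2, the scavenger receptor Msr1 and the chemokine receptor Cx3cr1 by -1.83, -1.82 and -1.50 (adjusted p = 0.517, 0.423 and 0.483). The median of these 8 genes was -0.55 in uninjured, -1.09 in saline-treated and -3.06 in PE-treated mice.

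Among 32 chemokine and type 2 cytokine genes, 1 was called (3.12%, near the 2.66% of all genes) and the median was -0.61. Ccl7, which attracts monocytes, was that gene. In the 3 B6 libraries Ccl7 read 4.82, 1.51 and 2.81 log2 CPM, and in the 3 MRL libraries -1.13, 0.55 and 0.43. The strains did not overlap, and the difference was -3.10 ± 0.76 (limma adjusted p = 0.0279). The call was lost without B6 library 1 (adjusted p = 0.199), B6 library 3 (0.0734) or MRL library 1 (0.192), and in a fit on the compared groups alone (0.121). Ccl19, which guides cells to lymphoid tissue, differed by 1.79 ± 0.53 in the opposite direction and did not pass (adjusted p = 0.0859). Of 20 complement genes 0 were called. An unadjusted p under 0.05 was seen for 4 of them, all lower, against 13.4% of all genes. C3ar1, the receptor of the C3a fragment, differed by -2.47 ± 0.85 (limma adjusted p = 0.171).

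**Figure D3:**
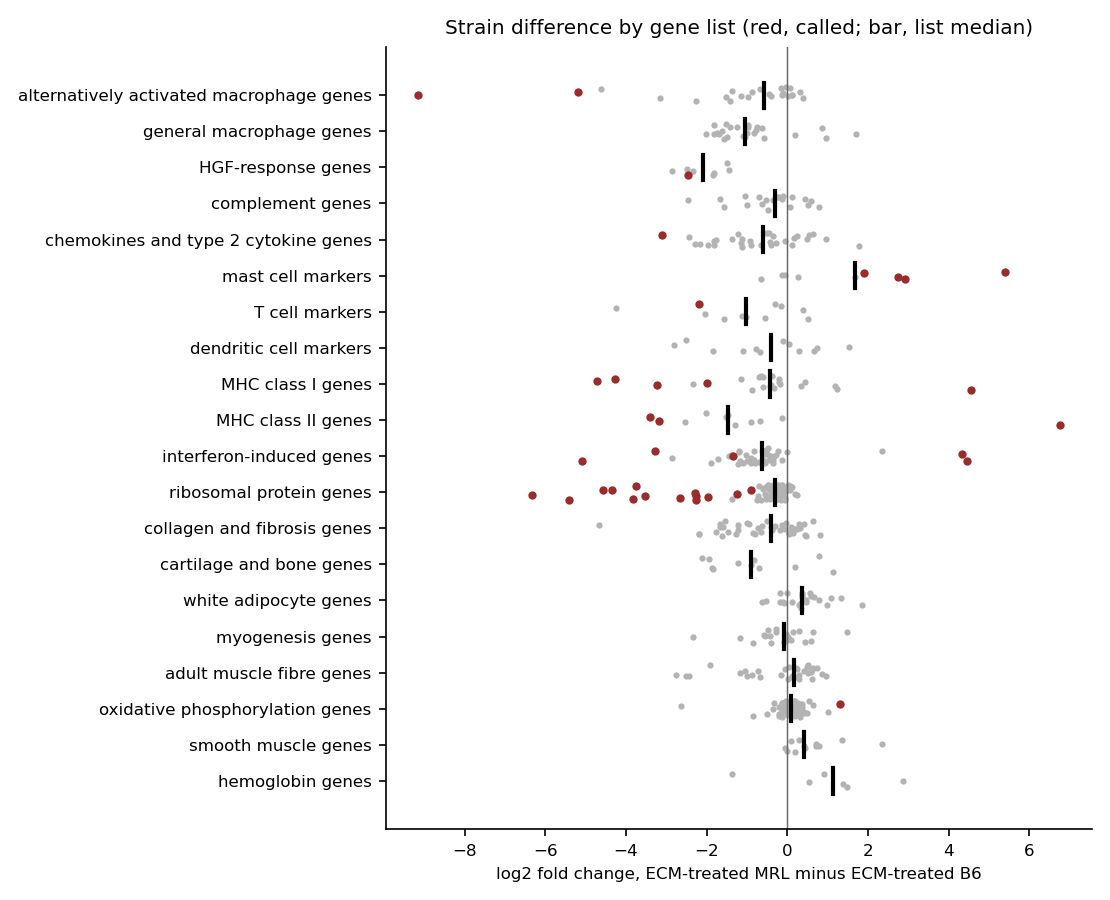
Log2 difference of every measured member (grey, not called; red, called) of 20 gene lists between ECM-treated MRL and ECM-treated B6 mice, with the list median as a bar. Mast cell markers have their median at 1.68, HGF-response genes at -2.09 and general macrophage genes at -1.06, and the 14 called ribosomal protein genes all lie below 0.

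Mast cell markers were higher in MRL mice wherever they were called. Of 9 measured genes 4 were called, all higher in MRL mice (44.4% of the list, against 1.27% of all genes called higher), and the median was 1.68. Summed, the list reached 12.4 to 18.7 CPM in B6 and 23.5 to 34.8 CPM in MRL libraries. Tpsb2, a tryptase of mast cell granules, was listed at 0 in all 3 B6 libraries and read 2.02, 1.59 and 1.60 log2 CPM in the MRL libraries (limma adjusted p = 1.11e-08), and it was listed at 0 in every B6 library of the other treatments too. Levels of Tpsab1 were -2.89, -1.91 and -2.90 log2 CPM in the B6 libraries and 1.34, 1.05 and -1.30 in the MRL libraries. This gene encodes another tryptase of the same granules. The carboxypeptidase Cpa3 differed by 1.90 ± 0.50 and the mast cell receptor Mrgprb1 by 2.74 ± 0.62 (adjusted p = 0.0430 and 0.0159), Tpsab1 by 2.93 ± 0.70 (adjusted p = 0.0235). The stem cell factor receptor Kit, which also defines mast cells, and the transcription factor Gata2 differed by -0.13 and -0.05, and neither was called. The calls of Tpsab1, Cpa3 and Mrgprb1 were each lost in 2 to 4 of the 6 fits that left out 1 library, with adjusted p values of up to 0.172, 0.230 and 0.144. Those libraries were B6 library 1, B6 library 3, MRL library 1 and MRL library 2 for Tpsab1, B6 library 1, B6 library 2, MRL library 1 and MRL library 2 for Cpa3, and B6 library 3 and MRL library 1 for Mrgprb1. With log2(CPM + 1) or in a fit on the compared groups alone all 3 of these calls were lost as well, and that of Cpa3 also under the filter on low values, equal totals and the replicate block. The median of the list was -0.63 in uninjured, 1.33 in saline-treated and 2.55 in PE-treated mice.

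T cell markers were negative for 9 of 11 measured genes, with a median of -1.03 that turned to 0.39 when members with a mean log2 CPM below 1 were left out. Cd3d, a subunit of the T cell receptor complex, was the 1 called member (9.09% of the list, against 2.66% of all genes). Cd3d stood at 1.62, 1.28 and 1.37 log2 CPM in B6 libraries 1 to 3 and at -0.82, -1.32 and -0.16 in MRL libraries 1 to 3. The difference was -2.19 ± 0.48 (limma adjusted p = 0.0111, with 0.0585 without B6 library 1 and 0.0848 without MRL library 2), and Cd3e, its partner, differed by -2.03 ± 0.65 (adjusted p = 0.131). Cd4 and Cd8a, which define the helper and cytotoxic subsets, differed by 0.50 and -0.56 and were not called. The summed level of the T cell list was 18.7 to 26.2 CPM in B6 and 9.21 to 14.8 CPM in MRL libraries.

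Other white blood cells showed few calls. Ear2, an eosinophil-associated RNase that some macrophages also express, was lower in MRL mice (-1.98 ± 0.52, limma adjusted p = 0.0476) and lost its call without B6 library 1 or 3 or MRL library 1 or 2 or on the compared groups alone (adjusted p up to 0.250). Of the 12 eosinophil genes sought 3 were measured, and defining ones such as Epx, Prg2 and Ccr3 were not in the matrix. Besides Ear2 these were Ccl11, higher in MRL mice by 0.63 (unadjusted p under 0.05), and Siglecf, which differed by -1.42. Neither was called (limma adjusted p = 0.329 and 0.587). The summed level of the list overlapped between strains, so no direction is given for it. Neutrophil markers (8 measured), B and plasma cell markers (6), cytotoxic genes (5) and dendritic cell markers (12) had 0 calls each, with 0, 3, 2 and 6 members at an unadjusted p under 0.05. Of those 6 dendritic cell markers 4 were lower and 2 higher in MRL mice, and of all 12 measured 5 were positive. Batf3, a transcription factor of cross-presenting dendritic cells, differed by -2.52 ± 0.81 (limma adjusted p = 0.129). Siglech differed by 1.53 in the opposite direction, with overlapping libraries (limma adjusted p = 0.287). The immunoglobulin genes Igkc and Ighm differed by -2.75 and 0.93 with overlapping libraries.

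Genes of the MHC separated the strains in both directions. H2-Ea-ps, the alpha chain of the I-E class II molecule, which B6 mice are known not to make, was near the bottom of the scale in B6 mice and higher in MRL mice. The B6 libraries gave -2.59, -2.97 and -2.34 log2 CPM for H2-Ea-ps, and the MRL libraries gave 3.69, 3.61 and 5.08. The log2 difference was 6.76 ± 0.64 (limma adjusted p = 6.14e-07), on chromosome 17 at 34560926-34563618 (GRCm39). Its partner H2-Eb1, the beta chain, was lower in MRL mice (-3.41 ± 0.87, adjusted p = 0.0386), as was H2-DMb1, which helps to load peptides on class II (-3.18 ± 0.71, adjusted p = 0.0135). Both of these calls were lost without B6 library 1, B6 library 3, MRL library 1 or MRL library 2, with adjusted p values of up to 0.239 for H2-Eb1 and 0.0986 for H2-DMb1, and that of H2-Eb1 also on the compared groups alone. Summed with its copy H2-DMb2, H2-DMb1 differed by -2.46. In all, 3 of 11 class II genes were called (27.3%, against 2.66% of all genes) and 10 of 11 were negative, with a median of -1.48. The invariant chain Cd74 differed by -1.53 without a call.

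Of 23 class I genes 5 were called (21.7%, against 2.66% of all genes), 4 lower and 1 higher in MRL mice. H2-D1, a classical class I heavy chain, was highly expressed in both strains. For H2-D1 the log2 CPM was 7.80, 7.55 and 8.62 in B6 mice and 5.11, 4.64 and 4.55 in MRL mice. The B6 mean was 9.34-fold that of MRL mice (-3.22 ± 0.42 on the log2 scale, limma adjusted p = 4.42e-05). H2-Q6 and H2-Q7, nonclassical class I genes, differed by -4.73 ± 0.46 and -4.27 ± 0.43 (adjusted p = 8.19e-07 and 1.39e-06), H2-K1 by -1.98 ± 0.44 (adjusted p = 0.0137, with 0.108 without B6 library 3 and 0.0982 without MRL library 2), and H2-Q1 by 4.56 ± 0.63 (adjusted p = 9.27e-05). Summed with their near-identical copies, the differences became -1.53 for H2-Q6 and H2-Q7, -2.46 for H2-D1 and -1.66 for H2-K1. H2-Q5, outside the list, was also called lower (-2.21, limma adjusted p = 0.0303). Its call was lost without B6 library 2 or 3 or MRL library 1 or 2 (adjusted p up to 0.208). Summed with its copies, among them H2-Q7, it differed by -4.23, so the sums depend on which copies are joined. Reads of both strains were matched to the same reference set of transcripts, and the effect of strain-specific MHC alleles on these values was not tested.

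Interferon-induced genes were negative for 43 of 46 measured members, with a median of -0.64 in ECM-treated mice and of -0.99, -1.03 and -0.95 in uninjured, saline-treated and PE-treated mice. There were 5 calls (10.9%, against 2.66% of all genes). Gvin1, a large interferon-induced GTPase, Trim30d and Ifi35 were lower in MRL mice and differed by -5.09 ± 0.62, -3.27 ± 0.58 and -1.34 ± 0.31 (limma adjusted p = 2.07e-05, 0.00180 and 0.0187). Ifi202b, a DNA-binding protein of the interferon-inducible 200 family, was higher. Log2 CPM of Ifi202b came to -2.0, -2.51 and -2.33 in the B6 and 1.22, 2.61 and 2.67 in the MRL libraries. Ifi44l was listed at 0 in all 3 B6 libraries and read -0.36, 1.64 and 0.73 log2 CPM in MRL mice (adjusted p = 0.000272). The call of Ifi35 was lost without B6 library 1, B6 library 3, MRL library 1 or MRL library 3 (adjusted p up to 0.112), while those of Gvin1, Trim30d, Ifi202b and Ifi44l held whichever library was left out. B6 library 3 held the highest B6 value for 38 of the 46 members.

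The lists of muscle regeneration and of adult fibres held no call. Of 21 myogenesis genes 0 were called and 1 had an unadjusted p under 0.05. That was Mstn, which encodes myostatin, the brake on muscle growth. In the 3 B6 libraries Mstn read 5.24, 5.14 and 4.08 log2 CPM, and in the 3 MRL libraries 6.59, 6.22 and 6.10. Its difference of 1.48 ± 0.51 did not pass (limma adjusted p = 0.163). The perinatal myosin Myh8, made by regenerating fibres, differed by -2.34 ± 1.23 with overlapping libraries (adjusted p = 0.432), and Pax7 of satellite cells by 0.63 ± 0.34 (adjusted p = 0.456). Of 32 adult fibre genes 0 were called and 0 had an unadjusted p under 0.05. Their median of 0.17 turned negative under quantile normalization, under equal totals and without B6 library 3, so no direction is given.

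Of 44 collagen and fibrosis genes 0 were called, 6 had an unadjusted p under 0.05 (against 13.4% of all genes), and the median was -0.40. Postn, which encodes periostin of activated fibroblasts, differed by -1.78 ± 0.75 (limma adjusted p = 0.301), and its libraries did not overlap. The collagenase Mmp13 showed a wide spread. Levels of Mmp13 were 5.61, 3.39 and 5.95 log2 CPM in the B6 libraries and -1.32, -1.95 and 4.24 in the MRL libraries. MRL library 3 stood within the B6 range and the other MRL libraries far below it, and the difference of -4.66 ± 1.55 did not pass (adjusted p = 0.147). Summed levels of the list were 5430 to 8160 CPM in B6 and 4160 to 6270 CPM in MRL libraries. Cartilage and bone genes (11 measured) had 0 calls and a median of -0.89, with the matrix protein Cilp at -1.86 (adjusted p = 0.392).

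White adipocyte genes were spread widely among the libraries of each strain. Of 24 genes 0 were called and 0 had an unadjusted p under 0.05. Plin1 stood at -0.71, -1.11 and 5.98 log2 CPM in B6 libraries 1 to 3 and at 5.54, 2.83 and 1.31 in MRL libraries 1 to 3. Plin1, which coats the fat droplet, was thus highest by far in 1 B6 library and in 1 MRL library, and the difference was 1.84 ± 1.73 (limma adjusted p = 0.684). B6 library 3 held the highest B6 value for 22 of the 24 genes, and MRL library 1 the highest MRL value for 22. Leptin (Lep) read 2.55, 1.76 and 5.06 in B6 and 7.18, 3.44 and 2.78 log2 CPM in MRL libraries, and Scd1, the stearoyl-CoA desaturase, 7.14, 7.73 and 11.84 and 12.15, 9.63 and 9.11. The list median of 0.36 became -0.08 without B6 library 1 and -0.13 without MRL library 1, so no direction is given.

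Metabolic lists of the fibre showed 1 call, which made up 1.19% of its list, below the 2.66% of all genes. Among 84 oxidative phosphorylation genes, Atp5s, a coupling factor of ATP synthase, was higher in MRL mice (1.31 ± 0.34, limma adjusted p = 0.0438), and it lost the call when any 1 of the 6 libraries was left out (adjusted p up to 0.215) and under the filter, equal totals, quantile normalization, the compared groups alone and the replicate block. Sdhc, a subunit of succinate dehydrogenase, differed by 1.02 ± 0.32 (adjusted p = 0.113). Fatty acid oxidation (23 genes), fatty acid synthesis (14), cholesterol synthesis (19) and glycolysis genes (26) had 0 calls, with 0, 0, 2 and 0 members at an unadjusted p under 0.05. Nnt, the mitochondrial transhydrogenase that carries a known deletion in C57BL/6J mice, was higher in MRL mice. The B6 libraries gave 3.27, 5.04 and 3.17 log2 CPM for Nnt, and the MRL libraries gave 7.41, 7.62 and 5.94. The difference was 3.16 ± 0.71 (adjusted p = 0.0153), and it lost its call without B6 library 1 or 3 or MRL library 1 or 2 (adjusted p up to 0.0984).

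Genes of haem and haemoglobin are given because the haem synthesis list held calls in both directions (2 of 10 genes, 20.0%, against 2.66% of all genes). Alad, the second enzyme of haem synthesis, was higher in MRL mice. For Alad the log2 CPM was 3.65, 3.90 and 4.18 in B6 mice and 5.67, 5.71 and 5.38 in MRL mice. The difference was 1.68 ± 0.27 (limma adjusted p = 0.000619) and stayed called whichever library was left out. Ppox, a later enzyme of the pathway, was lower (-0.77 ± 0.19, adjusted p = 0.0273) and lost its call when any 1 of the 6 libraries was left out (adjusted p up to 0.160) and under quantile normalization. The alpha globin gene Hba-a1 was not called (adjusted p = 0.0650) although its libraries stood apart. Log2 CPM of Hba-a1 came to 4.98, 5.04 and 4.93 in the B6 and 8.64, 7.62 and 7.27 in the MRL libraries. Its copy Hba-a2 differed by -1.36, the opposite sign, and 0 of 6 haemoglobin and red cell genes were called.

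Several of the called genes with the greatest differences belonged to no immune list. Hal, the histidine ammonia-lyase of the urocanate pathway, was higher in MRL mice. In the 3 B6 libraries Hal read 1.09, 2.39 and -0.29 log2 CPM, and in the 3 MRL libraries 4.98, 5.58 and 6.75. Its difference was 4.71 ± 0.72 (limma adjusted p = 0.000369). Opn1mw, a cone opsin, Lrrc3b, Ifna2, an interferon alpha gene, and B4galnt2, a glycosyltransferase, were higher by 5.90 ± 0.71, 5.37 ± 0.61, 5.67 ± 0.50 and 4.42 ± 0.44, from levels near the bottom of the scale in B6 mice. Ogdhl, a relative of the oxoglutarate dehydrogenase, was listed at 0 in all 3 B6 libraries and read 1.07, 2.17 and 1.25 log2 CPM in MRL mice (adjusted p = 0.0346), a call that was lost when any 1 library was left out (adjusted p up to 0.151) and under the replicate block.

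In the downward direction the major urinary protein genes Mup18 and Mup11, carriers of pheromones made mainly by liver, differed by -5.99 ± 0.84 and -5.17 ± 0.95 (limma adjusted p = 0.000118 and 0.00247). Levels of Mup18 were 1.87, 1.62 and 4.99 log2 CPM in the B6 libraries and -3.65, -2.19 and -3.65 in the MRL libraries. B6 library 3 stood above the other B6 libraries. Both belong to a family of near-identical Mup copies whose summed difference was -2.27, and the call of Mup11 was lost in a fit on the compared groups alone (adjusted p = 0.0573). Rab6b, a small GTPase of Golgi transport, differed by -5.06 ± 0.54 (adjusted p = 3.03e-06). Rsph3b, which encodes a protein of ciliary radial spokes, was listed at 0 in all 3 MRL libraries and read 1.26, 2.63 and 2.30 log2 CPM in B6 mice, with an adjusted p of 0.0476 that rose to as much as 0.155 when 1 library was left out, any of the 6 ending the call, as did log2(CPM + 1), equal totals and the replicate block.

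Most of the called genes differed in the same direction without ECM. Over all genes, 2.6% were called between uninjured, 2.51% between saline-treated and 3.35% between PE-treated mice of the strains. Of the 376 genes, 361 had the same sign in uninjured, saline-treated and PE-treated mice. They were called in the same direction in 239 cases (63.6% of the 376, and 64.9% of the 368 genes called there) in uninjured mice, in 253 (67.3%, and 71.1% of 356) in saline-treated mice and in 241 (64.1%, and 50.8% of 474) in PE-treated mice. In all 4 treatments 178 were called. A total of 67 genes, 31 higher and 36 lower, were called with ECM and in no other treatment. Of these, 55 had the same sign in the other 3 treatments. In the fit of all 24 libraries the tests of the difference between treatments passed for Chil3 alone.

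**Figure D4:**
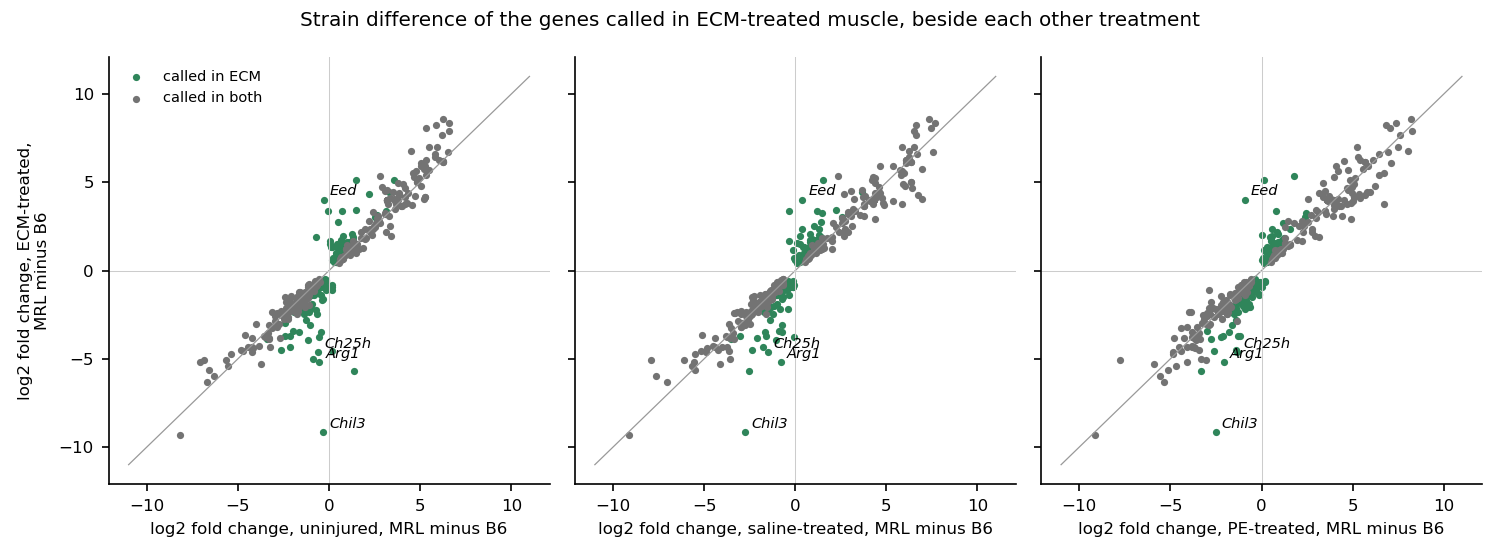
Log2 strain difference (MRL minus B6) of the 376 genes called in ECM-treated mice (vertical axis) against their strain difference in uninjured, saline-treated and PE-treated mice (horizontal axes), with the line of equality. Points called in both comparisons (grey) follow the line, and Chil3, Arg1, Ch25h and Eed are further from 0 with ECM than in each other treatment.

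In all, 11 of the genes called with ECM had an unadjusted p of at least 0.05 in each of the other 3 treatments, a selection made after the values were seen. The largest absolute difference among those not listed at 0 throughout a strain was that of Ch25h, the enzyme that makes 25-hydroxycholesterol in macrophages and other cells. Ch25h stood at 4.92, 1.16 and 1.85 log2 CPM in B6 libraries 1 to 3 and at -2.42, -2.57 and -0.89 in MRL libraries 1 to 3. The strains did not overlap, the difference was -4.60 ± 0.82 (limma adjusted p = 0.00188) and the call held whichever library was left out (adjusted p up to 0.0160). Dpp4, a surface peptidase found on fibroblast and T cell subsets, was higher in MRL mice (1.66 ± 0.42, adjusted p = 0.0356) and lost its call without B6 library 1 or 3 or MRL library 1 or 2 (adjusted p up to 0.238). Eed, a subunit of the Polycomb repressive complex, was called through 2 B6 libraries. The B6 libraries gave -2.26, -1.78 and 3.94 log2 CPM for Eed, and the MRL libraries gave 3.91, 3.80 and 4.24. B6 library 3 lay within the MRL range, so Eed was among the 3 called genes whose strains overlapped, and its call was lost without B6 library 1 or 2 or any 1 MRL library (adjusted p up to 0.230). U2surp, a splicing factor, differed by -0.95 ± 0.18 (adjusted p = 0.00393).

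Genes with near-identical copies were more frequent among the calls than among all genes. Of 359 called genes with a canonical transcript in the annotation, 132 (36.8%) had a copy in the matrix matching at 90% identity or more along 50% or more of the shorter of both transcripts, against 651 of 13786 (4.72%) over all genes with such a transcript. Pseudogenes were 63 of the 376 called genes (16.8%), 53 higher and 10 lower, against 1.63% of all genes. There were 94 pairs of copies with both members called. Their differences had opposite signs in 43 pairs and a shared sign in 51. Whether this split differs from that of other pairs of called genes was not tested. The median absolute log2 difference of the 132 genes was 3.91 alone and 0.88 when the CPM of each was summed with that of its copies, and 74 of the 132 summed values (56.1%) were under 1. These genes were chosen by their calls alone, so smaller summed differences follow in part from that choice. Several members of a family share the same sum, such as -2.27 for the Mup genes, so the 132 values are not independent.

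The pair of Vcp, the AAA ATPase that extracts ubiquitinated proteins, and its processed pseudogene Vcp-rs shows how close such copies are. Over the coding bases aligned without a gap, 8 of 2406 differed. With gaps counted, the transcripts matched at 99.05% over 2421 aligned positions. The 90 coding bases with the most differences are printed with those 3 differing bases in capitals (GENCODE transcripts, GRCm39, Vcp on chromosome 4 at 42979412-43000527 and Vcp-rs on chromosome X at 103389435-103391840, both on the minus strand).
Vcp: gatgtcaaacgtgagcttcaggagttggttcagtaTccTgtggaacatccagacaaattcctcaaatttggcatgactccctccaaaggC
Vcp-rs: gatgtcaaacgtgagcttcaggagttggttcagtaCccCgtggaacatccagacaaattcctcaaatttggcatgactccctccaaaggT
For Vcp-rs the log2 CPM was -0.51, -0.12 and 0.92 in B6 mice and 8.71, 8.66 and 8.63 in MRL mice. Log2 CPM of Vcp came to 9.09, 9.31 and 9.04 in the B6 and 8.47, 8.42 and 8.60 in the MRL libraries. Vcp-rs therefore rose to the level of Vcp in MRL mice, by 8.57 on the log2 scale (limma adjusted p = 1.38e-12), while Vcp fell by 0.65 (adjusted p = 0.0212). Summed, the pair read 9.15 ± 0.14 log2 CPM in B6 and 9.59 ± 0.04 in MRL mice, a difference of 0.44 (± SD here, n = 3). The call of Vcp was lost without B6 library 1 or 2 or MRL library 1 or 2 (adjusted p up to 0.119).

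Rnaset2a and Rnaset2b, lysosomal ribonucleases with 0 differences over 780 aligned coding bases, also parted. Rnaset2b differed by -5.61 ± 0.52 (limma adjusted p = 4.19e-07) and Rnaset2a by 1.50 ± 0.16 (adjusted p = 4.31e-06), and their sum by 0.57. The same held for Rsph3b, whose sum with Rsph3a differed by 0.30, and for Hspa8, the constitutive heat shock protein, which fell by 0.82 alone (adjusted p = 0.0283, lost when any 1 library was left out, up to 0.158, and under the replicate block) and differed by 0.07 together with its pseudogene. Values of single members of such pairs are therefore uncertain.

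**Figure D5:**
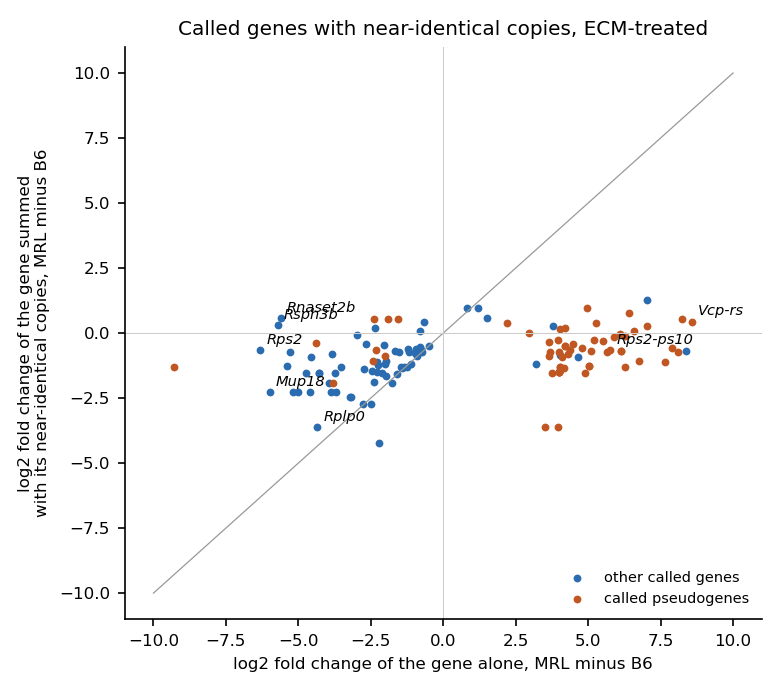
Log2 difference between ECM-treated MRL and B6 mice of 132 called genes that have near-identical copies, alone (horizontal axis) and summed with their copies (vertical axis), with the line of equality. Called pseudogenes (orange) lie mostly to the right of 0 alone and closer to 0 when summed, as for Vcp-rs at 8.57 alone and 0.44 summed.

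Ribosomal protein genes, which build the 2 subunits of the ribosome, contributed 14 calls among 83 measured genes (16.9%, against 2.66% of all genes). All 14 were lower in MRL mice, and the list median was -0.30. Rps2 fell from 9.62, 9.62 and 9.35 log2 CPM in the B6 libraries to 3.31, 3.04 and 3.27 in the MRL libraries (-6.32 ± 0.56, limma adjusted p = 2.43e-07). Rplp0, Rpl29 and Rps7 differed by -4.35 ± 0.31, -5.41 ± 0.38 and -3.52 ± 0.23 (adjusted p = 1.21e-08, 1.29e-08 and 5.04e-09). Summed with their copies, Rps2 differed by -0.67, Rps7 by -1.31 and Rpl29 by -1.26, whereas Rplp0 still differed by -3.62. Of the 83 genes, 76 were negative, and the list median was -0.03 in uninjured, -0.34 in saline-treated and -0.35 in PE-treated mice.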

How the data were processed

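Bulk poly(A) RNA of whole quadriceps was sequenced in 24 libraries of 8 groups, 3 in each, and day 21 was the time of collection after injury. The authors quantified reads with kallisto against the Ensembl GRCm39 cDNA set, summarized transcripts to genes with tximport, kept genes above 1 CPM in at least 3 libraries, scaled libraries by TMM in edgeR, and the deposited values are log2 CPM with a prior count of 2. These are normalized values, so no count model was used on them.

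All 24 libraries were fitted with limma 3.58.1 in R 4.3.3 (trended prior variance, 1 coefficient for each group), positive differences being higher in MRL mice, and Benjamini-Hochberg adjustment ran over 14159 genes. Called means an adjusted p under 0.05. The strain difference with ECM was also compared with that in each other treatment as an interaction. An exact permutation test of 3 libraries against 3 cannot give a p below 0.1 and was not used. A value within 0.002 log2 units of the lowest one was taken as listed at 0. The steps were tested on simulated data. Copies were found with BLAST 2.17.0 on GENCODE GRCm39 transcripts, and symbols were matched as current for 13126 genes and as older symbols for 662, with 371 unmatched. Tables and figures were made with Python 3.11.15, pandas 2.3.3 and matplotlib 3.10.9.

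The comparison, its gene lists and the rule for named genes were chosen with earlier results of these data known. The rule named the genes the study discusses for ECM or macrophages, up to 10 called genes in each direction with the largest difference and no overlap between strains (predicted genes and pseudogenes left out), up to 6 called members of each list by smallest p (up to 3 members where fewer than 2 were called), up to 5 genes by smallest p in each interaction, and Nnt, Fas, H2-Ea-ps and Cdkn1a. Polr2f, Ch25h, Dpp4, Eed, Vcp, Vcp-rs, Rnaset2a, Hba-a2, Lep, Kit, Gata2, Cd4, Cd8a and Cd74, where not taken in by that rule, were chosen after their values were seen. The text reports some, not all, of the genes that the rule named.

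The alternatives were log2(CPM + 1), a filter on mean log2 CPM of at least 1, equal totals, quantile normalization, the compared groups alone, library quality weights, a constant prior variance, a replicate block, leaving out each library, summing copies and, added after the data were seen, a fit without PE-treated MRL library 2. Each library was described as an independent sample, but where nothing states separate animals the p-values measure the spread between these libraries.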

Additional observations from a re-analysis of the deposited data

Results flagged for a closer look

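In the fit of all 24 libraries, Chil3 alone passed a test of whether the strain difference depended on treatment, and only against uninjured mice. It did not pass without MRL library 1 or MRL library 2, or on the compared groups alone. The strain difference in ECM-treated mice minus that in uninjured mice was -8.81 on the log2 scale (limma interaction, adjusted p = 0.0214). All 3 ECM-treated B6 libraries were above all 3 ECM-treated MRL libraries, which describes the ECM groups and not the interaction. Against saline-treated and PE-treated mice the same interaction was -6.38 and -6.63 and did not pass (adjusted p = 1 and 0.79).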

How the results depend on the processing

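The 376 calls between ECM-treated strains became 235 with the filter on mean log2 CPM of at least 1 (11617 genes tested), 2410 with library quality weights, whose estimation did not converge, and 600 without PE-treated MRL library 2, and 253 to 376 when 1 ECM library was left out. In the other fits the count was 344 to 399. The interaction with uninjured mice, 1 gene, gave 0 with the filter, 2 with quantile normalization, 61 with quality weights, 2 with a constant prior variance and 0 to 4 when 1 library was left out. The filter removed Chil3, so that gene was not tested under it. In the fit on the compared groups alone 1 gene passed and it was not Chil3. The interaction with saline gave 465 with quality weights and 0 to 1 without a library, and that with PE gave 1 with log2(CPM + 1), 1886 with quality weights, 269 without PE-treated MRL library 2 and 0 to 1 without a library. The causes were not tested.

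Some differences that did not pass the test turned sign. Under equal totals Maf became -0.24, Pink1 -0.13, Cdkn1b -0.01, Ckm -0.01 and Tnnt3 -0.13. Under quantile normalization Maf became -0.13, Pink1 -0.09, Ckm -0.21 and Tnnt3 -0.29, and with quality weights Maf became -0.15. When 1 ECM library was left out, Cd163 ranged from -0.98 to 0.40, Maf from -0.10 to 0.20, Pink1 from -0.08 to 0.25, Gata3 from -0.99 to 0.11, Lcn2 from -2.39 to 0.19, Lep from -0.02 to 2.31, Prdm16 from -1.12 to 0.06, Ckm from -0.01 to 0.41 and Tnnt3 from -0.07 to 0.25. Summed with copies, Rsph3b became 0.30, Rnaset2b 0.57 and Hspa8 0.07, which were called alone. Of the other values, counts of called genes included, 2158 stayed the same, 98 gained a call and 106 lost one. The 14 that moved were counts of called genes.

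Same-numbered ECM libraries did not visibly deviate together (correlations of -0.071, 0.0975 and -0.009). With groups of 3 libraries these correlations cannot show that the numbers carry no pairing. With a replicate block 344 genes were called, 332 of them among the 376, and the interactions gave 1, 0 and 0 genes.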

Other observations

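Myelin and Schwann cell genes were negative for 13 of 14 measured members in ECM-treated MRL against B6 mice, with a median of -0.68 on the log2 scale and 0 calls. Their summed level was 97.5 to 128 CPM in the B6 and 66.3 to 81.2 CPM in the MRL libraries, which did not overlap. Smooth muscle genes were positive for 10 of 12 members, with a median of 0.42 and 0 calls, and summed levels of 3040 to 4240 CPM in B6 and 4580 to 4950 CPM in MRL libraries.

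Proliferation genes had 0 calls among 20 measured and a median of -0.37, with 17 negative, and circadian clock genes had 0 calls among 17 and a median of 0.29. Endothelial genes had 0 calls among 17, and their median of 0.10 turned negative under equal totals and without B6 library 1.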
